A study of Mus musculus with 6 samples.

Results

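Binding of the co-repressor CTBP2 was measured across the stretch of mouse chromosome 12 that holds 3 genes of the AP-1 family, Fos, Jdp2 and Batf. The sites described are those of the deposited table on chromosome 12 whose centre lies in a window of 350 kb, from upstream of Fos to past Batf, chosen by position alone. There were 44 such sites of 62236 in the table (0.0707%), all described here. The locus itself was chosen with earlier results of these data known. The 3 LPS libraries came from macrophages given lipopolysaccharide (LPS), a component of the bacterial cell wall, at 100 ng/ml for 3 h, and the 3 vehicle libraries from macrophages given PBS. All cells in both groups were grown for 6 days from bone marrow of wild-type male C57BL6/N mice aged 6 to 12 weeks, and chromatin was precipitated with 1 antibody against CTBP2. The labels number the libraries of a group and do not say whether they came from separate mice, pools or cultures, so the p-values reflect no more than library-to-library spread, part or all of which may be technical. The assay measures DNA and no transcript, so the cell type was not checked against marker genes, and no input library was analysed here.

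CTBP2 does not bind DNA by itself. It is brought to chromatin by DNA-bound transcription factors, and it recruits histone deacetylases and demethylases that lower transcription. AP-1 is a family of leucine zipper proteins that bind DNA as dimers. FOS is an immediate early activator made within minutes of a stimulus, JDP2 pairs with JUN proteins and mostly represses, and BATF pairs with JUN proteins and works together with IRF factors in lymphoid and myeloid cells. Fos, Jdp2 and Batf lie in this order on 1 strand.

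Sites are given as the table gives them and are taken to be on GRCm39, which is among the builds in the submitters' processing notes. The gene starts available were on GRCm38.p6, so they were placed among the sites by an offset measured from the data. A shift of 46.7 kb put 56 of 113 gene starts around the locus within 500 bp of a site centre, against 19 for the next best shift and 9 for no shift. Distances from "the placed start" of a gene rest on this shift and are good to about 500 bp. By the gene names that the authors' deposited table carries, 11 of the sites belonged to Fos, 16 to Jdp2, 15 to Batf and 2 to Erg28.

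Promoter sequences were read from RefSeq (GRCm38.p6, plus strand, from 250 bases before to 50 bases after the start) for the genes whose starts the sites are measured from. Capitals mark TGACGT, the core of the cAMP response element (CRE) that ATF, CREB and some AP-1 dimers bind. These 6 letters were picked after the sequences had been seen, and they are in 7.51% of 32851 promoters on either strand. The Batf promoter is shown because a CTBP2 site that rose covers the placed start, the Fos promoter because a site that fell lies just before it, and the second of 3 listed Jdp2 promoters because it carries the same letters.
Batf (chr12:85686470-85686769): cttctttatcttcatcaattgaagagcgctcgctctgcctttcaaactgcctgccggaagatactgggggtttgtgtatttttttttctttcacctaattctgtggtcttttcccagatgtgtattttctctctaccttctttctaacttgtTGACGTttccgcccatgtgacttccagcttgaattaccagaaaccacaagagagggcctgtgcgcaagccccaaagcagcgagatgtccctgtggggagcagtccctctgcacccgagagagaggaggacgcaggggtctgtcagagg
Fos (chr12:85473640-85473939): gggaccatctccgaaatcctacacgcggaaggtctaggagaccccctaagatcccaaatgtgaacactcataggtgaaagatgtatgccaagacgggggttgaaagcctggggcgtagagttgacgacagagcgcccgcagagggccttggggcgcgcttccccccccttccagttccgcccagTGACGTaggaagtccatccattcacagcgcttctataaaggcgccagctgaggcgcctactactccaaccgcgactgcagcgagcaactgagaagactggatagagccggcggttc
Jdp2 (chr12:85599166-85599465): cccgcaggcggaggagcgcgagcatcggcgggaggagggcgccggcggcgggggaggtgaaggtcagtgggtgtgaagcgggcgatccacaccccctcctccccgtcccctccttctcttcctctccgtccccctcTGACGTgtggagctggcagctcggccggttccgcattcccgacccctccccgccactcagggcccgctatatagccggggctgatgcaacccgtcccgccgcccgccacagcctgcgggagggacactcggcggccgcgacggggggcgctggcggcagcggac
TGACGT begins 98 bases before the start in Batf, 66 in Fos and 114 in Jdp2. None of the full motifs searched on both strands was found in these 3 windows. These were AP-1 (TGANTCA, in 7.81% of all promoters), CRE (TGACGTCA, 1.79%), an NF-kB motif (20.7%), an IRF motif (3.44%), PU.1 (GAGGAAGT, 3.2%) and C/EBP (TTGCNNAA, 10.8%). No match says only that these letters are not in these windows. The third Jdp2 promoter (chr12:85599768-85600067) held 1 NF-kB match.

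The deposited values were divided by the median of their library over all sites and rescaled to a common level, so that a typical site has a scaled signal near 47 in each library. LPS was compared with vehicle by limma on log2(scaled signal + 1) over all 62236 sites, with Benjamini-Hochberg adjustment and a threshold of 0.05. Read as multiples of the smallest step of each column, the LPS libraries held between 3654209 and 4553181 reads in sites and the vehicle libraries between 3243258 and 4457286. Site by site on the log scale, library pairs of a group correlated at 0.89 to 0.93 and pairs across groups at 0.69 to 0.76, over sites that are not independent.

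After LPS, CTBP2 signal rose over Batf and at sites between Fos and Jdp2, and fell at sites upstream of Fos. Of the 44 sites, 13 were higher in LPS and 3 were lower by limma. Over all sites 16.1% were higher and 13.5% lower, and in the locus the shares are read against these. All 13 higher sites lay past the placed start of Fos, among 34 sites there, and all 3 lower sites lay before it, among 10. Within 30 kb of the placed Batf start, a window that was not planned, 7 of 12 sites were higher, and within 50 kb 7 of 15. Some of these higher sites were among the weakest of all sites in vehicle and may be in the table only through their LPS signal. The median log2 fold was 0.23 in the locus and -0.02 over all sites. Scaling by library medians largely fixes the latter value, and a shift shared by all sites would not show. At 15 sites every LPS library exceeded every vehicle library, as it did at 21.6% of all sites, and at 4 sites the reverse held, against 20.6% of all sites.

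**Figure D1:**
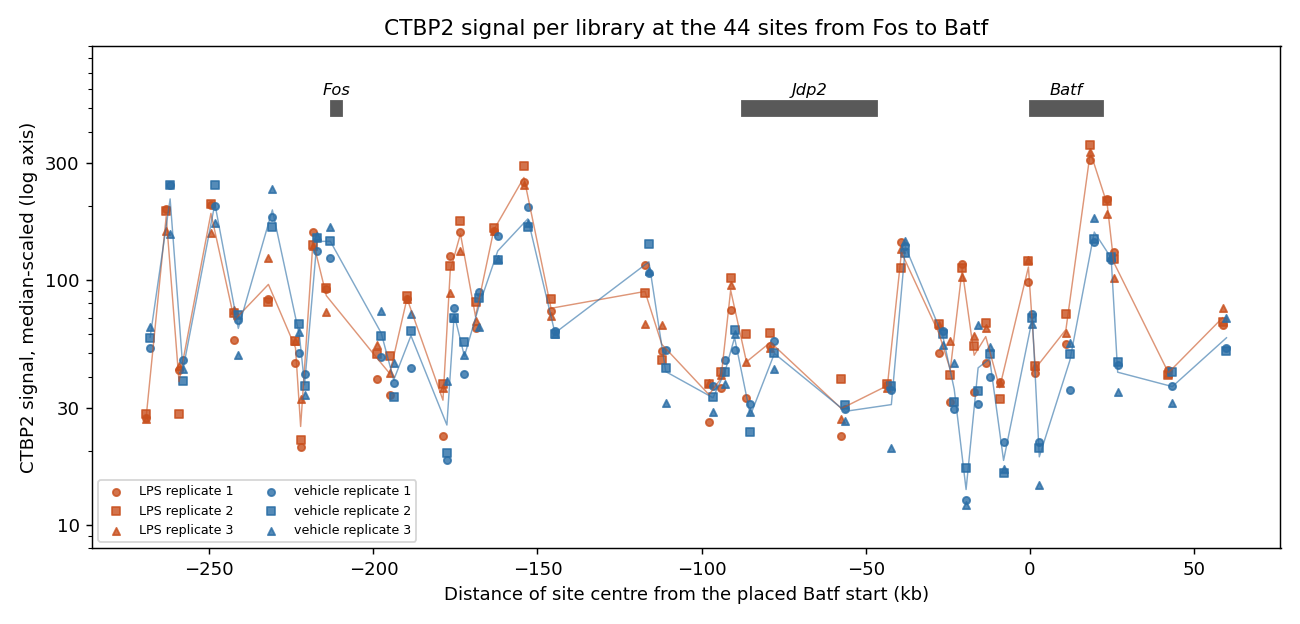
CTBP2 signal, median-scaled and on a log axis, in each LPS library (orange, drawn 0.6 kb to the left) and each vehicle library (blue, 0.6 kb to the right) at the 44 sites, against distance in kb from the placed Batf start. Lines join the group means and grey boxes are the genes; orange points lie above blue ones around Batf, and blue above orange at sites left of Fos.

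The strongest change was 20.0 kb upstream of Batf. At chr12:85712927-85713927 the scaled signal was 116, 112 and 103 in the LPS libraries, against 12.6, 17.1 and 12.0 in the vehicle libraries. The groups do not overlap, and the lowest LPS library stands far above the highest vehicle library. These values rest on 106, 131 and 114 reads in LPS and on 11, 20 and 10 in vehicle. The log2 fold was 2.91 (standard error 0.20; adjusted p = 6.47e-13 in limma, n = 3 per group), a 7.53-fold rise, and 21 of the 62236 sites had a larger one. Among all sites its mean was at the 88.6th percentile in LPS and at the 0.676th in vehicle. The authors' deposited table gives this site a log2 fold of 2.56 and an FDR of 1.01e-09, and names it Batf at 26.8 kb past the gene start, where the measured offset places it before the gene.

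Sites between it and the gene moved less. At chr12:85724349-85725349, 8.57 kb upstream of Batf, the signal was 38.2, 32.4 and 37.9 in LPS and 21.8, 16.2 and 16.8 in vehicle, a rise of 0.96 on the log2 scale (standard error 0.26; adjusted p = 0.0058 in limma). The 6 other sites between the end of Jdp2 and the start of Batf were not called, with log2 folds from -0.08 to 0.30. Both sites that rose in this gap were among the weakest of all sites in vehicle, the nearer one at the 3.46th percentile. Sites this weak in vehicle may be in the table only through their LPS signal. Their low vehicle rank and their rise are therefore not separate results.

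The start of Batf itself was bound in vehicle and gained signal after LPS. The site chr12:85733125-85734125 covers the placed start. Whether it covers all of the promoter printed above is not settled, since distances are good to about 500 bp. The site held 98.2, 119 and 120 in LPS, against 72.1, 70.0 and 66.2 in vehicle, with every LPS library above every vehicle library. The log2 fold was 0.68 (standard error 0.15; adjusted p = 8.50e-04 in limma), or 1.61-fold. Right behind it, 2.31 kb into the gene, chr12:85735234-85736234 held 41.5, 44.4 and 44.2 in LPS and 21.8, 20.5 and 14.4 in vehicle. Its log2 fold was larger, at 1.18 (standard error 0.24; adjusted p = 3.41e-04 in limma), from a lower level in vehicle. That level was at the 4.05th percentile of all sites. This site, too, may be in the table only through its LPS signal, so its low vehicle rank and its rise are not separate results.

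The strongest site of the locus in LPS lay near the end of Batf. At chr12:85751988-85752988, 19.1 kb into the gene, the signal was 309, 354 and 332 in LPS, against 143, 147 and 179 in vehicle. It was at the 99.9th percentile of all sites in LPS and already at the 96.7th in vehicle, and its log2 fold was 1.09 (standard error 0.13; adjusted p = 5.75e-08 in limma). A further pair of sites lay past the gene. The one at chr12:85757132-85758132, 24.2 kb from the start, held 213, 210 and 186 in LPS and 120, 124 and 124 in vehicle, a log2 fold of 0.72 (standard error 0.13; adjusted p = 7.92e-05 in limma). Its neighbour at chr12:85759120-85760120 held 130, 121 and 102 in LPS and 44.6, 46.1 and 34.9 in vehicle, a 2.77-fold rise (log2 fold 1.47, SE 0.17, limma adjusted p = 3.17e-08). Only 2 sites of the locus lay farther out, and neither was called (log2 folds 0.19 and 0.28). The fourth site inside Batf, at 11.6 kb, was not called either, with the highest log2 fold of all uncalled sites (0.42).

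**Figure D2:**
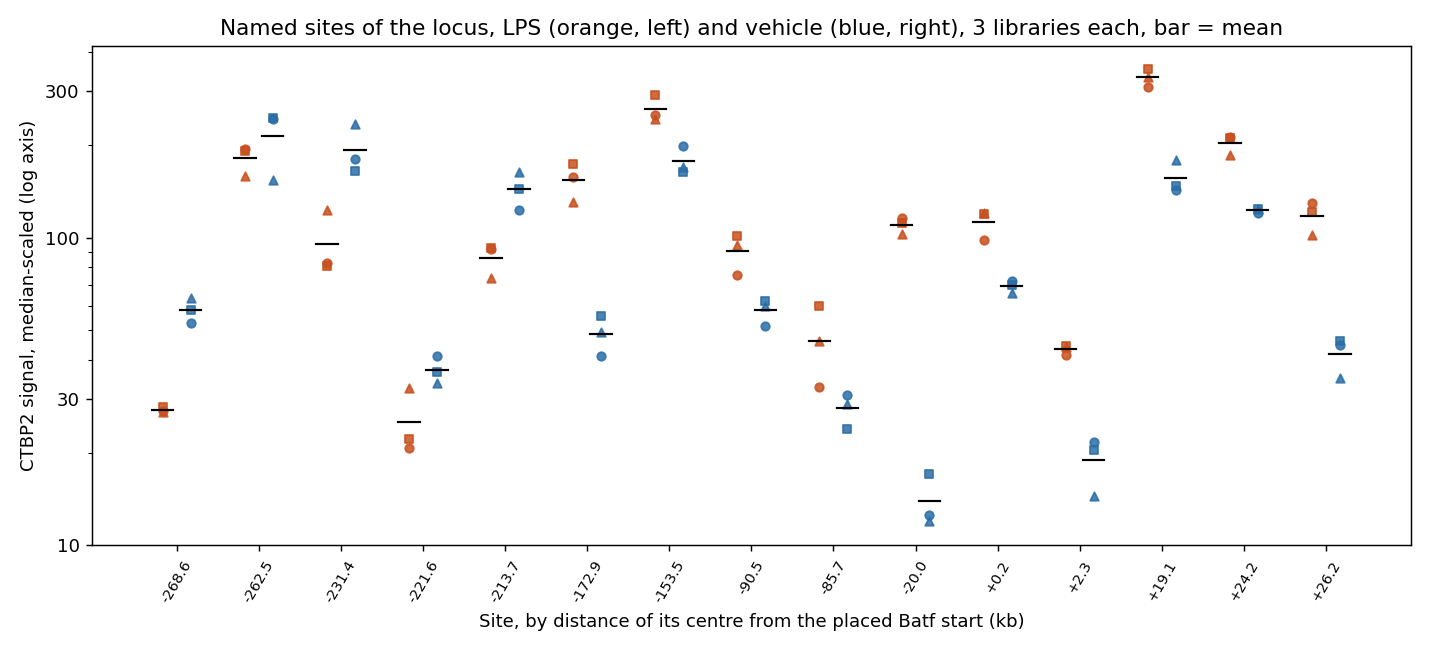
Median-scaled CTBP2 signal (log axis) in the 3 LPS libraries (orange, left) and 3 vehicle libraries (blue, right) at the 15 named sites, ordered by distance in kb of the site centre from the placed Batf start; black bars are means. The groups separate at all but 1 of these sites, and the site 20.0 kb upstream of Batf shows the widest gap.

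Between Fos and Jdp2 5 of 15 sites rose and 0 fell by limma (1 at an unadjusted p under 0.05). The largest of these gains was 40.0 kb past the placed start of Fos, at chr12:85560058-85561058. Signal there was 157, 173 and 131 in LPS, against 41.2, 55.5 and 49.3 in vehicle, with no overlap. The log2 fold was 1.64 (standard error 0.16; adjusted p = 1.46e-09 in limma), or 3.12-fold. This put it at the 95.9th percentile of all sites in LPS and at the 52.6th in vehicle. The authors' deposited table names it Jdp2, 38.5 kb upstream of that gene, while the measured offset leaves it 85.2 kb upstream of Jdp2. Its neighbour 36.9 kb past the Fos start rose by 0.57 on the log2 scale (limma adjusted p = 0.00596), and the uncalled site on its other side, at 44.6 kb, had a log2 fold of -0.15. Stronger binding in both groups was seen at chr12:85579392-85580392, with 250, 291 and 243 in LPS and 198, 164 and 170 in vehicle. This rise was modest (log2 fold 0.56, SE 0.13, limma adjusted p = 0.00117). The site 23.7 kb past the Fos start had a log2 fold of 0.53 (limma adjusted p = 0.0212) and lost the call without LPS replicate 2, LPS replicate 3 or vehicle replicate 1, where its log2 fold was 0.51, 0.53 and 0.33. That site also lost the call in limma without the trend and robust options.

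Jdp2 has several listed starts, and distances are from the most upstream one. The others lie farther into the gene and were not used. At Jdp2 the called changes were close in size to that at the Batf start (log2 fold 0.68), and no site covered the placed start. The site just before it, 2.92 kb upstream (chr12:85642388-85643388), held 75.3, 102 and 94.8 in LPS and 51.5, 62.3 and 60.2 in vehicle, a log2 fold of 0.63 (standard error 0.17; adjusted p = 0.00418 in limma). The nearest site, 1.90 kb into the gene (chr12:85647204-85648204), held 32.7, 59.7 and 46.0 in LPS and 30.9, 23.9 and 28.9 in vehicle. LPS replicate 1 was barely above vehicle replicate 1 there. Its log2 fold of 0.67 (standard error 0.22; adjusted p = 0.0204 in limma) lost the call without LPS replicate 2, LPS replicate 3 or vehicle replicate 2, where it was 0.47, 0.66 and 0.57. The other 2 sites inside Jdp2 had log2 folds of 0.15 and 0.00 and were not called.

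**Figure D3:**
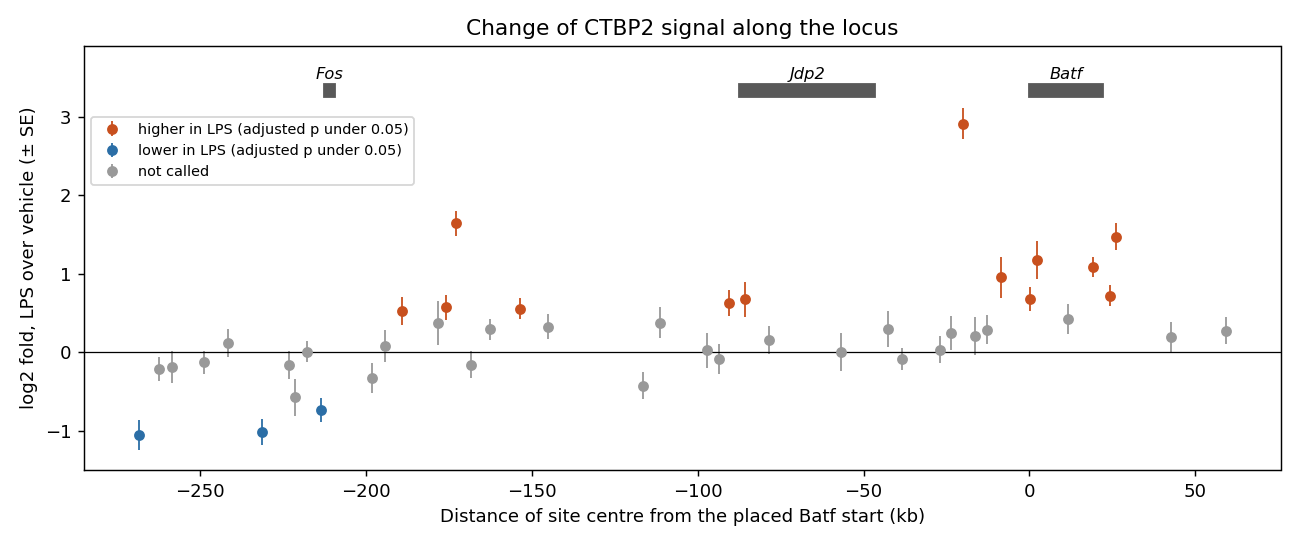
log2 fold of CTBP2 signal, LPS over vehicle, with its standard error at each of the 44 sites, against distance in kb from the placed Batf start. Orange marks the 13 higher and blue the 3 lower sites (limma adjusted p under 0.05), grey the 28 others; the blue sites lie left of Fos, and the highest point, 2.91, lies 20.0 kb left of Batf.

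Upstream of Fos the signal fell at 3 of 10 sites and rose at 0 by limma (0 also at an unadjusted p under 0.05). The site nearest to the Fos start, at chr12:85519197-85520197 with its centre 0.893 kb before it, held 91.7, 92.2 and 74.0 in LPS, against 122, 144 and 164 in vehicle. All LPS libraries were below all vehicle libraries, and the log2 fold was -0.73 (standard error 0.15; adjusted p = 3.51e-04 in limma). Farther out, 18.5 kb upstream at chr12:85501541-85502541, the signal was 83.0, 81.1 and 123 in LPS and 180, 165 and 233 in vehicle. This was a well bound site in vehicle, at the 98.7th percentile of all sites, and its log2 fold was -1.01 (standard error 0.16; adjusted p = 1.57e-05 in limma). The most distant one, 55.8 kb upstream at chr12:85464295-85465295, held 27.3, 28.2 and 27.1 in LPS and 52.7, 58.0 and 63.8 in vehicle, with a log2 fold of -1.05 (standard error 0.19; adjusted p = 7.64e-05 in limma). A weak site 8.73 kb upstream had 20.7, 22.2 and 32.5 in LPS and 41.2, 36.7 and 33.7 in vehicle and missed the threshold (log2 fold -0.57, SE 0.24, limma adjusted p = 0.0653).

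Other strong sites upstream of Fos were not called. The highest vehicle mean of the locus was at chr12:85470390-85471390, 49.7 kb upstream, with 194, 191 and 158 in LPS and 243, 244 and 154 in vehicle. The groups overlap there because vehicle replicate 3 lies below all the LPS libraries, and the log2 fold was -0.21 (standard error 0.15; adjusted p = 0.316 in limma). It was called, at -0.43, only without vehicle replicate 3. The strong sites 36.1 and 4.97 kb upstream had log2 folds of -0.13 and 0.01.

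Summed over the sites of each segment, the signal per library separated the groups in all segments but the inside of Jdp2. Upstream of Fos the 10 sites summed to 920, 914 and 881 in LPS, against 1134, 1214 and 1124 in vehicle. Over the 4 sites inside Batf the sums were 503, 590 and 557 in LPS and 272, 287 and 315 in vehicle, so the LPS mean was 1.89 times the vehicle mean. Past Batf they were 451, 439 and 406 in LPS and 254, 263 and 260 in vehicle. The sums between Fos and Jdp2 were 1343 ± 87.1 in LPS and 1046 ± 13.9 in vehicle (SD, n = 3 each). Those between Jdp2 and Batf were 523 ± 28.9 in LPS and 385 ± 22.4 in vehicle (SD, n = 3 each). Much of the difference between Jdp2 and Batf lay at 1 site, 20.0 kb upstream of Batf, with means of 110 in LPS and 13.9 in vehicle. Inside Jdp2 the sums overlapped, at 109, 160 and 125 in LPS and 117, 105 and 98.7 in vehicle. No test was made on these sums, since the sites were chosen with earlier results known.

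**Figure D4:**
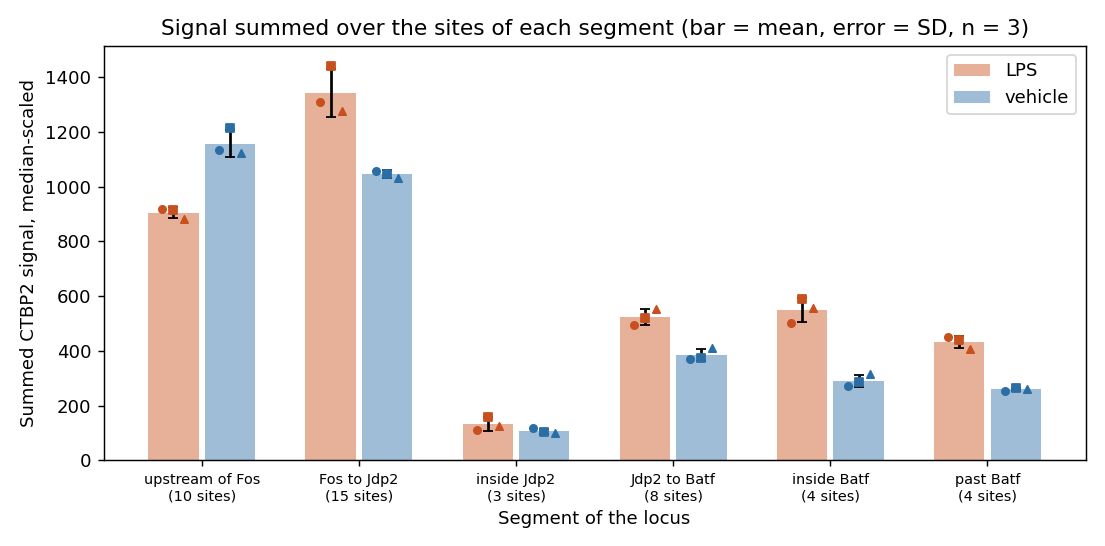
Median-scaled CTBP2 signal summed over the sites of each segment of the locus, for LPS (orange, left) and vehicle (blue, right); bars are means, error bars SD, points the 3 libraries of a group. LPS is below vehicle upstream of Fos and above it in the other segments, with overlapping points only inside Jdp2.

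The calls depended on the scaling between libraries. On the deposited values without median scaling 2 of the 13 higher sites kept the call, those 20.0 kb upstream of Batf (log2 fold 2.97) and 40.0 kb past the Fos start (1.70). The other 11 had log2 folds of 0.59 to 1.53 and the 3 lower sites -0.99 to -0.67, of the same direction as after scaling. The deposited values had library medians of 37.1, 48.8 and 61.0 in LPS and of 35.5, 37.3 and 73.0 in vehicle. Without scaling 1178 sites were higher and 30 lower over all sites (1.89% and 0.0482% of them; 97.5% of called sites higher, against 54.4% after scaling). By the authors' deposited table, 4 sites of the locus had an FDR under 0.05, all of them higher, where 4.01% of all sites were higher and 0.37% lower. All 4 were among the 13: besides the strongest 2, the sites 2.31 and 26.2 kb past the Batf start, with deposited log2 folds of 0.93 and 1.26. Of the 16 called sites, 14 kept the call without each single library.

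The locus is dense in CTBP2 sites. Its 350 kb held 44, against a median of 11 in windows of that length that held any site, and 98.9% of 4624 such windows held fewer. Neighbouring centres in the locus were 1.57 to 28.6 kb apart, with a median gap of 5.25 kb, against 8.48 kb over all sites. The group mean per site ranged from 25.1 to 332 in LPS and from 13.9 to 214 in vehicle, with medians of 65.4 in LPS and 57.9 in vehicle. Spread between libraries was a median 12.6% of the mean in LPS and 14.4% in vehicle. The first site outside the lower limit, 8.67 kb before it, was lower in LPS (45.0 ± 2.45 in LPS, 102 ± 10.9 in vehicle, SD, n = 3 each), like the member just inside. The first site outside the upper limit, 65.4 kb past it, was not called (log2 fold -0.07), nor was the member just inside (0.28). In the 350 kb below the locus 3 of 33 sites were higher and 8 lower, and in the 350 kb above it 0 of 23 were higher and 7 lower by limma (1 higher at an unadjusted p under 0.05).

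Of the 12 AP-1 family genes listed (FOS, JUN, BATF, JDP2 and ATF3 members), 10 were placed; Fosl1 and Batf2 were not analysed here. Of these 10, 9 had a higher site within 50 kb of the placed start and 5 had a lower one, where 45.9% and 42% of protein-coding genes with a site in such a window did. The 10 genes had 7 to 17 sites each in this window. More sites give more chances of a called one, and the share over all genes was not matched for this. Outside the locus 6 of 7 genes had a higher site and 4 of 7 a lower one. Of the 86 sites there 13 were higher and 8 lower, where 16.1% and 13.5% of all sites were. The windows of Jdp2 and Batf share 2 sites, so the genes are not independent. Within 10 kb 4 of 10 genes had a higher and 2 a lower site, where 19.9% and 14.9% of genes did.

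Batf had the most higher sites of these genes, 7 of 15 within 50 kb with 0 lower by limma (0 also at an unadjusted p under 0.05), against 3 higher and 2 lower of 16 for Fos. Fosl2, which encodes a FOS relative without a strong activation domain, had 5 of 12 higher and 0 lower by limma (1 at an unadjusted p under 0.05). The 5 lay 23.8 to 40.1 kb past its start. The one with the largest change held 73.1, 64.0 and 64.1 in LPS and 22.9, 23.9 and 28.9 in vehicle (log2 fold 1.38, SE 0.19, limma adjusted p = 1.16e-06). Jun, which encodes the main partner of FOS, had 4 of 7 lower and 0 higher by limma (0 also at an unadjusted p under 0.05). Its site at the placed start held 102, 114 and 114 in LPS and 122, 145 and 183 in vehicle (log2 fold -0.43, SE 0.15, limma adjusted p = 0.0271), and the others lay 29.9 to 37.2 kb upstream, with log2 folds of -0.90 to -0.64.

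Jund, which encodes a JUN protein found in resting cells, had 2 of 14 higher and 1 lower. The larger gain was 4.26 kb upstream of its start. That site held 90.6, 92.2 and 116 in LPS and 20.6, 21.3 and 27.7 in vehicle, and its log2 fold of 2.06 (standard error 0.19; adjusted p = 2.58e-10 in limma) was the second largest around these genes, after that of Batf. The lower site of Jund, 48.4 kb upstream, held 28.4, 41.0 and 35.2 in LPS and 49.2, 49.5 and 54.1 in vehicle (log2 fold -0.55, limma adjusted p = 0.0301). The site nearest to the Jund start overlapped between groups, with 215, 261 and 292 in LPS and 236, 171 and 362 in vehicle. Junb, another JUN gene, had 1 of 10 higher, 7.29 kb upstream, with 242, 258 and 261 in LPS and 143, 157 and 183 in vehicle (log2 fold 0.66, limma adjusted p = 1.91e-04). Fosb had 2 higher and 2 lower of 17, Batf3 2 higher and 1 lower of 12, and Atf3 1 higher of 14. At the starts of Fosb, Fosl2, Junb, Jund, Batf3 and Atf3 the nearest site was not called, with log2 folds of -0.25 to 0.48. The shift was less well set for Batf3 and Atf3 (22 starts matched, 15 for the next best) than for the locus (56 and 19). This also held for Fosb (30 and 18), Jun (16 and 8), Junb (52 and 22) and Jund (69 and 29).

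**Figure D5:**
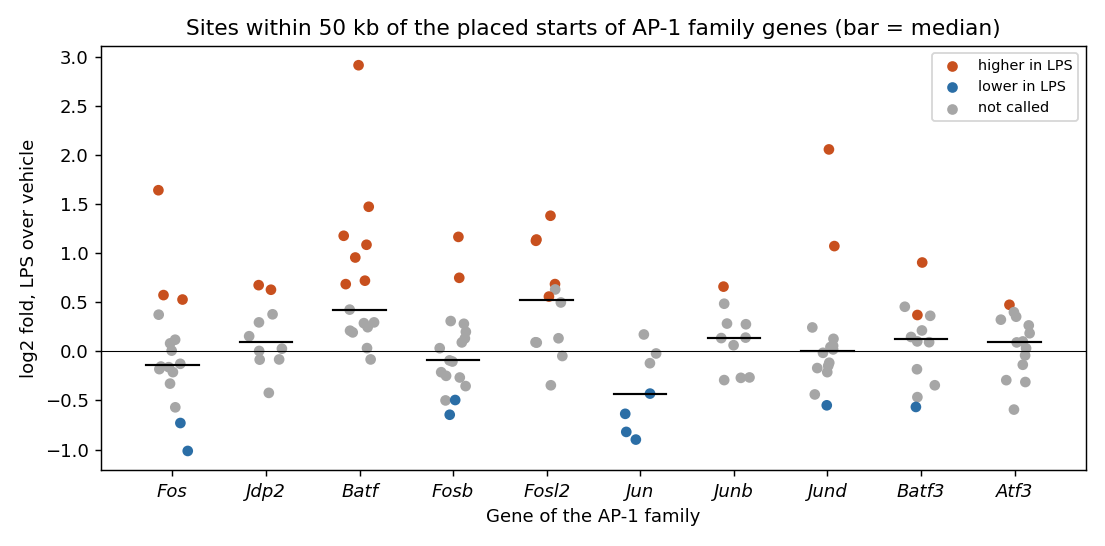
log2 fold of CTBP2 signal, LPS over vehicle, at each site within 50 kb of the placed start of 10 AP-1 family genes; orange is higher and blue lower in LPS (limma adjusted p under 0.05), grey not called, and bars are medians. Batf has the highest point (2.91) and 7 orange sites, Jun has 4 blue sites and no orange one.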

How the data were processed

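Chromatin immunoprecipitation and sequencing of CTBP2 was analysed from 1 deposited table of 62236 sites, with 3 LPS and 3 vehicle libraries. Per the submitters' processing notes the tools included BWA 0.7.17, MACS3 3.0.0a5 and DiffBind 3.16; the build used at each step is not stated there. The authors deposited a normalised signal per site and library, log2 concentrations and a log2 fold, and p-values with FDR. Low values of each deposited signal column were whole multiples of 1 step within 0.1 read, up to 300 reads, and reads are quoted on that basis; they may hold duplicates.

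Each column was divided by its median and multiplied by the geometric mean of the 6 medians. Groups were compared with limma 3.58.1 under R 4.3.3 (trend, robust) on log2(scaled signal + 1), so that folds at weak sites are understated. No covariate was used, and adjustment was over all sites. The fit was also run on simulated data with normal noise. The spread was shuffled among sites there, so the run does not cover a link between spread and signal. Alternatives were other scalings (none, quantile, trimmed mean), pseudocounts 0.5 and 5, a filter at a mean of 20, limma without trend and robust options, the replicate number as a block and leaving out each library. A planned count model was not run because the table holds normalised values.

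Genes were placed with RefSeq starts (GRCm38.p6): in bins of 1 Mb, each shift of up to 1 Mb on a grid of 100 bp was given a score, the number of starts (of those within 2 Mb) that came within 500 bp of a site centre, and the best shift was kept where the best had at least 10 hits and 1.4 times the next best. This placed 12930 of 17491 protein-coding genes. The plan had called for gene starts on the sites' own coordinates. The offset, its 1.4 limit and the TGACGT search were chosen after seeing the data, and the 30 kb window around Batf was not planned. Members and lists were chosen with earlier results of these data known. Named sites were those nearest to the 3 gene starts, the strongest in each group, the 4 highest and 4 lowest log2 folds and the 12 smallest p among called sites. The 3 other called sites, and the AP-1 family sites away from gene starts, were picked after their values were seen.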

Additional observations from a re-analysis of the deposited data

How the results depend on the processing

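On the deposited values without scaling the counts were 1178 higher and 30 lower sites over all sites, 2 higher and 0 lower in the locus by limma (2 lower at an unadjusted p under 0.05), and 3 AP-1 family genes with a higher and 0 with a lower site (1 at an unadjusted p under 0.05). In a window of 10 kb 4 AP-1 family genes had a higher and 2 a lower site, and under the table's own names, an alternative chosen after seeing the data, 4 had a higher one. Whether the replicate numbers pair the libraries was not settled. Deviations of same-numbered libraries correlated at 0.11, 0.04 and 0.21, and those of other pairs at -0.21 to 0.15. LPS replicates 2 and 3 correlated best with the vehicle library of the same number, and LPS replicate 1 with vehicle replicate 2 (0.15). With the replicate block the locus had 14 higher and 5 lower sites, 8 AP-1 family genes had a lower site, and 11692 and 10398 sites were higher and lower over all sites. Leaving out 1 library at a time gave 11 to 14 higher and 3 to 5 lower sites in the locus, 7691 to 10081 higher and 6032 to 7913 lower over all sites. The genes with a lower site numbered 4 to 6 and those with a higher site 9 in these fits. The other scalings, pseudocounts, filter and limma options gave 12 or 13 higher and 3 or 4 lower sites in the locus, and no named site changed direction in any alternative. Weak sites limit the precision: the lowest values in the locus rest on 19 reads in LPS and 10 in vehicle.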
